A study of Mus musculus with 6 samples.

Results

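The genes described here are 9 mouse genes for the oxidation and hydroxylation of proteins in the endoplasmic reticulum (ER), out of 17254 gene identifiers in the deposited tables. They are the ER oxidases Ero1a (listed as Ero1l in older annotation) and Ero1b, protein disulfide isomerase P4hb, the collagen prolyl 4-hydroxylase alpha subunits P4ha1, P4ha2 and P4ha3, and the lysyl hydroxylases Plod1, Plod2 and Plod3. They were chosen by name, after Ero1a and P4ha2 had stood out among the genes lower with NAC than in control. Their differences between NAC and the other groups are therefore given as a description. Where these genes are counted as past a threshold in those comparisons, the count describes the chosen genes, and none of their p-values is printed. RNA was sequenced from cultured mouse neural progenitor cells grown in N2 medium with EGF and bFGF, and the study asked how gene expression followed a shift of the cells' redox potential. The groups were cells given PQ for 48 h, cells given NAC for 48 h and control cells, with 2 libraries each. Titles number the libraries 9 and 12 for PQ, 10 and 13 for NAC and 8 and 11 for control, without saying whether 8 to 10 and 11 to 13 are batches. The labels do not spell out PQ or NAC and give no dose, strain or age. They do not state whether a group's libraries stem from separate cultures, and a p-value here reflects only library-to-library spread, possibly technical.

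Disulfide bonds of secreted proteins are made in the ER by protein disulfide isomerase, which hands the electrons it takes up to an Ero1 oxidase. Ero1 passes them on to molecular oxygen and releases hydrogen peroxide. Protein disulfide isomerase has another role as the beta subunit of collagen prolyl 4-hydroxylase, whose alpha subunit carries the active site and is encoded by P4ha1, P4ha2 or P4ha3. Hydroxyproline stabilises the collagen triple helix, and the hydroxylysine made by the Plod enzymes serves in collagen crosslinks and as an attachment site for sugars. The alpha subunits and the Plod enzymes are dioxygenases that use iron, 2-oxoglutarate, oxygen and ascorbate. Ero1a, P4ha1, P4ha2 and Plod2 are known as genes induced by hypoxia, and Ero1b as a gene of the unfolded protein response.

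Summed expected counts were 9680436 to 10698241 per library, and 12813 genes passed the filter on low counts and were tested. Of the 9 genes 8 passed, and P4ha3 did not. Libraries of the same group differed by 4.07 to 6.77 in chi-square per degree of freedom, against 14.6 to 37.3 for libraries of different groups, so none was a copy of another. Neural stem cell markers were present, with Vim at 2470 to 4870 CPM (counts scaled to the total of the library), Nes at 466 to 719 CPM and Sox2 at 295 to 413 CPM, while Prom1 and Hes5 were at or below 0.416 CPM. In bulk cultures such as these, fewer cells of a type and less RNA per cell cannot be told apart. The counts for marker lists below stand beside 17.9% of all tested genes with an adjusted p under 0.05 (edgeR) in each comparison with control. The astrocyte marker list summed to 653.2 to 695.3 CPM with PQ, 611.4 to 612.5 CPM with NAC and 542.5 to 551.6 CPM in control. Of its 8 genes 5 were higher and 1 lower with NAC than in control, and 3 were higher and 0 lower with PQ than in control. The oligodendrocyte lineage list summed to 1582 to 1782 CPM with PQ, 1914 to 2138 CPM with NAC and 1590 to 1807 CPM in control, and of its 5 tested genes 3 were higher and 0 lower with NAC and 0 passed with PQ. Mbp, Sox10 and Mog, which mark its later stages, were at 0 to 1.67 CPM. The neuronal list summed to 183.6 to 194.5 CPM with PQ, 320.3 to 360.6 CPM with NAC and 199 to 209.4 CPM in control, nearly all of it Map2, which was higher with NAC (log2 fold change 0.77 ± 0.09, adjusted p = 1.4e-05, edgeR). Tubb3 was lower with both, and Rbfox3 was at 0. Of the 10 tested genes of the neural stem cell list 1 was higher and 4 lower with PQ, and 2 were higher and 3 lower with NAC. The fibroblast and pericyte list of 10 genes summed to 699.8 to 795.8 CPM with PQ, 465.7 to 526.7 CPM with NAC and 902.4 to 1008 CPM in control, mostly Fn1, at 437 to 976 CPM. Col3a1 of that list was at 15.3 to 29.1 CPM, while Col1a1, Col1a2, Dcn, Lum, Pdgfrb, Acta2, Rgs5 and Thy1 were at 0 to 2.57 CPM. Of its 6 tested genes Dcn and Acta2 were higher and Col3a1 and Fn1 lower with PQ, and Acta2 was higher and Fn1 lower with NAC. Acta2 had 1.04 and 2.00 CPM with PQ, 0.927 and 1.29 CPM with NAC and 0.101 and 0.312 CPM in control, with log2 fold changes of 2.83 ± 0.69 for PQ (adjusted p = 0.008) and 2.36 ± 0.73 for NAC (adjusted p = 0.032, edgeR). The part of these shifts in the results was not tested.

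The promoters are shown because several of these genes are known hypoxia targets, and the core of the hypoxia response element reads ACGTG or GCGTG. Of the 9 genes 8 had a window in the RefSeq promoter table (GRCm38.p6), and Plod2 was the gene without one. The 250 bases before each start listed there were searched on both strands. For P4ha1, Ero1b and P4ha3 that start lies inside the gene's annotated span, so the window runs into the gene. The P4ha1 window ends at 59323295, past the start of its gene at 59323197. Ero1a, P4ha1 and P4ha2 held 3 cores each, Plod3 held 4, P4hb 2, Ero1b and Plod1 1 each, and P4ha3 0. Among 13045 windows of tested genes 55.9% held at least 1 core, so a core is a common match in windows of this length. How common several cores are in a window was not computed. The 130 bases nearest the start are printed 5′ to 3′ on the gene's strand for Ero1a and P4ha2, which differed most between groups, and for P4hb and Plod1, which differed less. Capitals mark the cores, and a core on the opposite strand reads CACGT or CACGC.
Ero1a, chr14:45318573-45318702, minus strand: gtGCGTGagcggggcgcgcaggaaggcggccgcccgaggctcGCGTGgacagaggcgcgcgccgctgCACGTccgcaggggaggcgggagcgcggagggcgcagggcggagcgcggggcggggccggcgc
P4ha2, chr11:54100794-54100923, plus strand: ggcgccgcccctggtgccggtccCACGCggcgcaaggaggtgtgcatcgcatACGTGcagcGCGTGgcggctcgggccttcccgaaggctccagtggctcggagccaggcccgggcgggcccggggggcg
P4hb, chr11:120573254-120573383, minus strand: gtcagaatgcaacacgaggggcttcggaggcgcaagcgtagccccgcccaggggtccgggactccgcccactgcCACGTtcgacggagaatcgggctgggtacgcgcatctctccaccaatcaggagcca
Plod1, chr4:147936777-147936906, minus strand: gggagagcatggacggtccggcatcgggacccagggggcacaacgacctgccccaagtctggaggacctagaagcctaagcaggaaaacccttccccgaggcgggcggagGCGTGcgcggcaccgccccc
In Ero1a all 3 cores of its 250-base window lie in the printed stretch, starting at -128, -88 and -63 from the start, and in P4ha2 all 3 start at -107, -78 and -69. The stretch of P4hb holds 1 of its 2 cores, at -56, and that of Plod1 holds its 1 core, at -20. The printed stretches also differ in their content of G and C, at 83.8% for Ero1a, 78.5% for P4ha2, 66.2% for P4hb and 70.0% for Plod1. Whether the number of cores bears on expression was not tested. Plod3, with the most cores, was among the genes that differed least between the groups. The amino acid response element TGATGNAA was in 0 of the 8 windows and in 1.99% of the windows of tested genes. The ER stress response element, CCAAT and CCACG with 9 bases between them, was in the Ero1b window alone, on the opposite strand at -201, and in 0.107% of the windows of tested genes.

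Ero1a was the most abundant of the 9 transcripts in PQ and control cells, and P4hb overtook it in NAC cells. On the FPKM scale, which is per transcript length, Ero1a averaged 587 ± 125.9 with PQ, 246.9 ± 20.3 with NAC and 670 ± 26.5 in control (SD, n = 2 each). Its rank among all genes by FPKM was 73 and 103 in the PQ libraries, 266 and 228 in the NAC libraries and 80 and 78 in the control libraries. The order by mean FPKM was Ero1a, P4hb, Plod2, Plod1, P4ha1, Plod3, P4ha2, Ero1b and P4ha3 in both PQ and control cells. In NAC cells P4hb, at 294.3 ± 11.5 FPKM, stood above Ero1a and the rest of the order was the same. No neighbours in this order overlapped in their library values in any group. At the low end Ero1b had 1.795 ± 0.389 FPKM with PQ, 2.175 ± 0.0212 FPKM with NAC and 1.655 ± 0.00707 FPKM in control. P4ha3 is known as a low-abundance alpha subunit. It was listed with 1 count in PQ library 1 and an expected count of 2.54 in NAC library 2, and had 0 counts in PQ library 2, NAC library 1 and both control libraries.

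**Figure D1:**
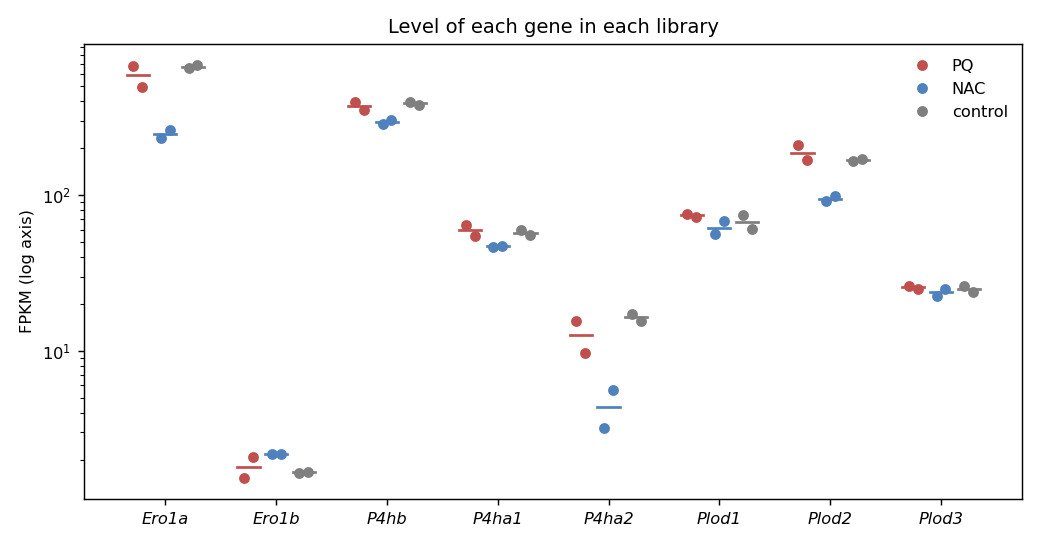
The level of 8 of the genes in each library, in FPKM on a log axis, with PQ, NAC and control from left to right within each gene. Points are libraries and lines are means of 2, and P4ha3 is left out because most of its libraries are at 0. The NAC points of Ero1a, P4ha2 and Plod2 sit clearly below those of PQ and control, while the 3 groups of Plod3 lie together at 22.48 to 26.1 FPKM.

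Of the ER oxidases Ero1a was much lower in NAC cells, and Ero1b was slightly higher there. Ero1a, the broadly expressed oxidase (gene on chromosome 14 at 45283087 to 45318572, GRCm38.p6), had 3044 and 2198 CPM in the PQ libraries, 1030 and 1145 CPM in the NAC libraries and 2953 and 3150 CPM in the control libraries. Both NAC libraries lay below the other 4, and the PQ libraries differed from each other more than those of the other groups. Ero1a was 2.81-fold lower with NAC than in control, a log2 fold change of -1.49 ± 0.12 (SE), and 2.41-fold higher with PQ than with NAC (1.27 ± 0.12). Of the tested genes 0.843% had a lower log2 fold change between NAC and control. Ero1a was singled out in that comparison, so nothing is read from this rank. Between PQ and control the Ero1a libraries overlapped, with a log2 fold change of -0.22 ± 0.12 (edgeR quasi-likelihood test, adjusted p = 0.22). That comparison shares its control libraries with the one that brought Ero1a to attention. It rests on how the PQ libraries are weighed: without PQ library 1 the log2 fold change was -0.47 and the adjusted p 0.012, and without PQ library 2 it was -0.0038.

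Ero1b, the oxidase best known from secretory cells such as those of the pancreatic islets, had 6.56 and 8.74 CPM in the PQ libraries, 9.18 and 9.21 CPM in the NAC libraries and 7.18 and 7.27 CPM in the control libraries. The NAC libraries were the highest, and those of PQ spanned the control values. Of all tested genes 28.3% were higher with NAC than in control without overlap. For Ero1b the log2 fold change was 0.35 ± 0.20 for NAC against control and -0.26 ± 0.19 for PQ against NAC. It was 0.09 ± 0.20 for PQ against control (adjusted p = 0.81, edgeR). The ratio of Ero1a to Ero1b in FPKM was 240.6 to 444.7 with PQ, 107.6 to 119.3 with NAC and 394.7 to 414.9 in control. Both NAC libraries had a lower ratio than the other 4.

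P4hb, the protein disulfide isomerase that Ero1 reoxidises, was also lower in NAC cells, by less than Ero1a. Its gene lies on chromosome 11 at 120560298 to 120573253. It had 1019 and 883 CPM in the PQ libraries, 721 and 754 CPM in the NAC libraries and 1029 and 991 CPM in the control libraries. Both NAC libraries were below the other 4, and PQ and control overlapped. P4hb was 1.37-fold lower with NAC than in control (log2 fold change -0.45 ± 0.09), 1.29-fold higher with PQ than with NAC (0.37 ± 0.09), and differed by -0.09 ± 0.09 between PQ and control (adjusted p = 0.57, edgeR). The ratio of Ero1a to P4hb in FPKM was 1.56 ± 0.20 with PQ, 0.838 ± 0.0364 with NAC and 1.72 ± 0.124 in control (SD, n = 2 each).

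Of the prolyl 4-hydroxylase alpha subunits P4ha2 differed far more between the groups than P4ha1. P4ha2, at chromosome 11 from 54100924 to 54131668, had 35.8 and 21.7 CPM in the PQ libraries, 7.23 and 12.5 CPM in the NAC libraries and 39.7 and 36.5 CPM in the control libraries. The groups did not overlap in any of the 3 pairs, and the libraries of PQ and of NAC each differed by more than a 1.5-fold ratio. P4ha2 was 3.88-fold lower with NAC than in control (log2 fold change -1.96 ± 0.22), and 0.273% of the tested genes had a lower value. P4ha2 too was singled out in that comparison, so nothing is read from its rank. It was 2.92-fold higher with PQ than with NAC (1.55 ± 0.23). For PQ against control the log2 fold change was -0.41 ± 0.20 (adjusted p = 0.17, edgeR), -0.81 without PQ library 1 (adjusted p = 0.019) and -0.09 without PQ library 2.

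P4ha1, the main alpha subunit of most cells, lies on chromosome 10 at 59323197 to 59373304. It had 265 and 222 CPM in the PQ libraries, 189 and 190.2 CPM in the NAC libraries and 246 and 233 CPM in the control libraries. The NAC libraries were the lowest and agreed closely, and the PQ libraries enclosed the control values. P4ha1 was 1.26-fold lower with NAC than in control (log2 fold change -0.34 ± 0.10) and 1.28-fold higher with PQ than with NAC (0.36 ± 0.10). Between PQ and control it differed by 0.02 ± 0.10 (adjusted p = 0.91, edgeR).

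Of the lysyl hydroxylases Plod2 had the largest differences between NAC and the other groups. Plod2, which hydroxylates the telopeptide lysines of collagen, lies on chromosome 9 at 92539636 to 92608428. It had 783 and 617 CPM in the PQ libraries, 336 and 360 CPM in the NAC libraries and 625 and 648 CPM in the control libraries. Both NAC libraries were well below the other 4, and the PQ libraries lay on either side of control. Plod2 was 1.83-fold lower with NAC than in control (log2 fold change -0.87 ± 0.11), and 3.57% of the tested genes had a lower value. The members were chosen with earlier results of these data known, so nothing is read from this rank either. Plod2 was 2.01-fold higher with PQ than with NAC (1.01 ± 0.11). Between PQ and control it differed by 0.14 ± 0.10 (adjusted p = 0.41, edgeR).

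Plod1, which hydroxylates lysines in the helical part of collagen, had 251 and 235 CPM in the PQ libraries, 182 and 218 CPM in the NAC libraries and 250.2 and 203 CPM in the control libraries. NAC and control overlapped, and the control libraries lay apart, 1 among the PQ values and 1 within the NAC range. Its log2 fold change was -0.18 ± 0.11 for NAC against control, 0.28 ± 0.11 for PQ against NAC and 0.10 ± 0.11 for PQ against control (adjusted p = 0.59, edgeR). In PQ against NAC it was past the threshold under 5 of 17 alternatives (no filter on low counts, a fit of only these groups, and without control library 1, control library 2 or NAC library 2), and leaving out 1 library gave 0.15 to 0.41. Plod3, which also adds sugars to hydroxylysine, had 86.1 and 81.7 CPM in the PQ libraries, 73.4 and 80.7 CPM in the NAC libraries and 87.2 and 80.5 CPM in the control libraries. It was the gene of the family that varied least between the groups, with log2 fold changes of -0.12 ± 0.10 for NAC against control, 0.12 ± 0.10 for PQ against NAC and 4.0e-05 ± 0.0999 for PQ against control (adjusted p = 1, edgeR). In the GENCODE annotation 6.4% of the exonic bases of Plod2 and 7.2% of those of Plod3 overlap other genes, in part on the opposite strand, and the use of strand in counting is not given in the sources used here. None of the exonic bases of the other 7 genes overlap another gene.

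**Figure D2:**
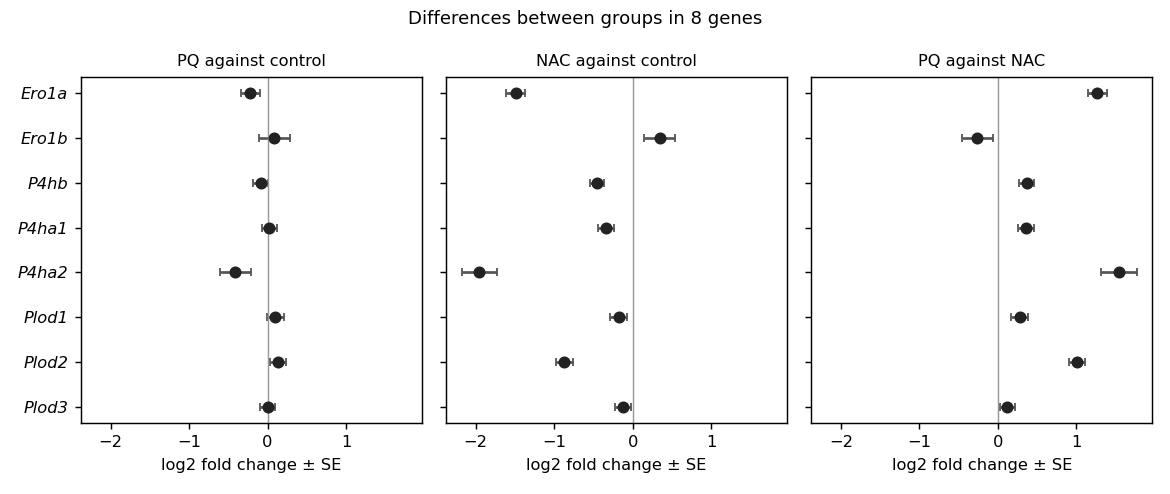
Log2 fold changes of 8 genes in each comparison, with approximate standard errors as bars, on a shared horizontal axis. In PQ against control all 8 points lie between -0.41 and 0.14, while in NAC against control Ero1a and P4ha2 lie at -1.49 and -1.96, and PQ against NAC mirrors that panel.

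Between PQ and control 0 of the 8 tested genes passed an adjusted p of 0.05 with edgeR, where 17.9% of all tested genes did, 9.07% higher and 8.8% lower. At an unadjusted p under 0.05 the count was also 0, as it was by DESeq2 and by limma on FPKM. The median log2 fold change of the 8 genes was 0.011, against -0.0024 over all tested genes. P4ha2 was the 1 gene whose PQ and control libraries did not overlap, and it was lower with PQ. Of all tested genes 57.2% did not overlap, made up of 28.2% lower and 29% higher with PQ. In simulated data a 1.5-fold change was found in 68.4% of the randomly picked tested genes given one, and a 2-fold change in 87.5%. The picked genes were of any level above the filter. Each gene's simulated spread followed the trend over level, without a spread of its own, and far fewer genes were changed than passed in the data. These shares therefore do not hold for each of the 8 genes. The SE of the 8 genes in this comparison ran from 0.0918 for P4hb to 0.202 for Ero1b, and a change could still be missed. Leaving out PQ library 1 gave 2 genes past the threshold, Ero1a and P4ha2, both lower.

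Between NAC and control 5 of the 8 genes were past the threshold and lower, namely Ero1a, P4hb, P4ha1, P4ha2 and Plod2, and 0 were higher. Over all genes 17.9% passed, 8.65% higher and 9.26% lower, a split that became 1392 higher and 986 lower genes when libraries were scaled by size alone, against 1108 and 1186 with the scaling used. Since Ero1a and P4ha2 were singled out in this comparison, the count describes the chosen genes and nothing is read from it. The median log2 fold change of the 8 genes was -0.40, against -0.0023 over all tested genes. The values of 5 genes were lower and those of Ero1b higher with NAC than in control without overlap, where 56.6% of all tested genes did not overlap, 28.3% lower and 28.3% higher. Plod1 and Plod3 overlapped.

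Between PQ and NAC the same 5 genes were past the threshold and higher with PQ, and 0 were lower. Over all genes 30.6% passed, 15.5% higher and 15.1% lower. The median log2 fold change was 0.36, against 0.0011 over all genes. Libraries did not overlap for any of the 8 genes, 7 of them higher with PQ and Ero1b lower, where 66% of all tested genes did not overlap, 33.1% higher and 32.9% lower. Without PQ library 1, and likewise without NAC library 1, 3 genes remained past the threshold, since P4hb and P4ha1 no longer passed. PQ against NAC and NAC against control share the NAC libraries, so the mirrored values are not separate evidence.

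The makeup of each enzyme group was described by the share of each gene in the summed FPKM. These shares come from the same libraries as the differences above, and P4ha2 was singled out in NAC against control. They restate those differences in another form and are not separate evidence. P4ha2 held 17.2% ± 3.26 of the summed P4ha FPKM with PQ, 8.45% ± 2.89 with NAC and 22.2% ± 0.406 in control (SD, n = 2 each), and P4ha1 held nearly all of the rest. Per library the share of P4ha2 was 19.5% and 14.9% with PQ, 6.41% and 10.5% with NAC and 22.4% and 21.9% in control, so the 3 groups did not overlap. Plod2 held 65.2% ± 2.85 of the summed Plod FPKM with PQ, 52.7% ± 1.52 with NAC and 64.5% ± 3.45 in control. The NAC libraries had the lowest share of Plod2, at 53.8% and 51.6%, and the PQ and control libraries overlapped. The share of Plod1 was 25.9% ± 2.05 with PQ, 34.2% ± 1.67 with NAC and 25.9% ± 3.16 in control.

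The summed alpha subunits came to 79.9 and 64.6 FPKM with PQ, 49.8 and 53.2 FPKM with NAC and 76.5 and 71.4 FPKM in control. Relative to P4hb, their partner subunit, they made up 19.2% ± 1.21 with PQ, 17.5% ± 0.13 with NAC and 18.9% ± 0.31 in control. The ratio to P4hb was lowest in the NAC libraries, by a smaller margin than the share of P4ha2. An exact permutation test of 2 against 2 libraries cannot give a p below 0.33, so these shares carry no test.

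**Figure D3:**
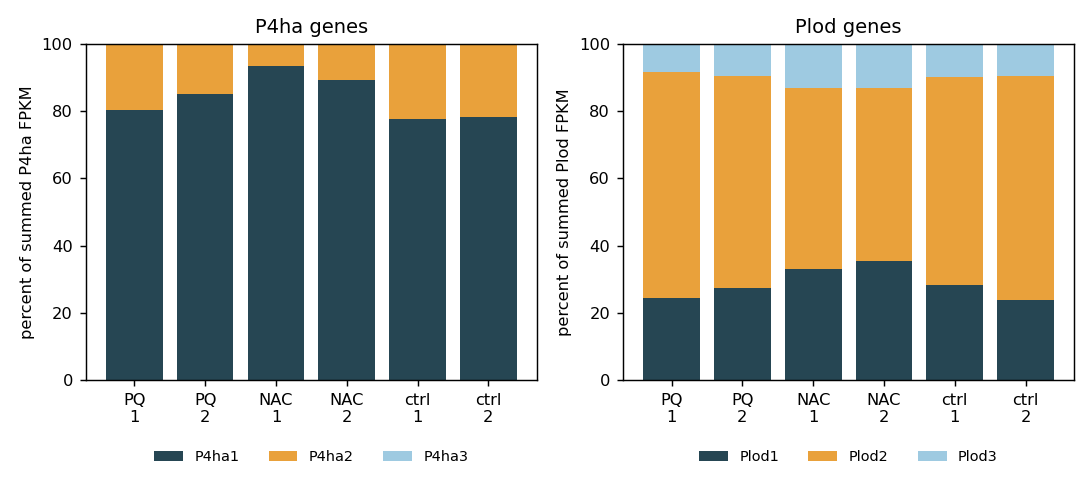
The percent of summed FPKM held by each P4ha gene and each Plod gene in each library, stacked to 100, with PQ, NAC and control (ctrl) from left to right. The P4ha2 band is thinnest in the NAC libraries, at 6.41% and 10.5%, and the Plod2 band there is thinner, at 53.8% and 51.6%.

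The 8 genes were also compared with each other by their pattern across the libraries. The measure of likeness was the root mean square difference of log2 CPM, each gene centred on its own mean over the 6 libraries, so that 0 means the same pattern. P4hb and P4ha1, which encode subunits of the same enzyme, were the closest pair at 0.0572, followed by Plod1 and Plod3 at 0.0932. Ero1a was nearest to Plod2, at 0.257, and to P4ha2, at 0.285. Ero1b and P4ha2 were farthest apart, at 1.07. The PQ libraries also differed from each other in several of these genes. PQ library 2 was lower than PQ library 1 by 0.47 on the log2 scale for Ero1a, by 0.72 for P4ha2 and by 0.34 for Plod2. It was lower by 0.25 for P4ha1 and by 0.21 for P4hb, and higher by 0.41 for Ero1b. For Plod1 and Plod3 the difference was small, at -0.0965 and -0.0743. No such spread over all tested genes is given here. In NAC the largest difference was in P4ha2, where library 2 was 0.77 above library 1, and in control it was in Plod1, where library 2 was 0.30 below library 1.

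The genes of most similar pattern outside the family were found among 8000 tested genes with a mean of at least 20 CPM. For Ero1a they were Egln3, Glipr2, Cav1, Ndrg1 and Mgarp, at root mean square differences of 0.137 to 0.161, where the median over all candidates was 0.684. Egln3, the nearest, had 114.5 and 80.1 CPM with PQ, 40.3 and 46.8 CPM with NAC and 104.1 and 95.8 CPM in control. For P4ha2 they included Tspan9, Mgarp, Ddit4 and Col12a1, at 0.286 to 0.308 with a median of 0.914. For Plod2 they were Stc1, Mt2, Emp2, Tmsb10 and Me2, at 0.0673 to 0.0856 with a median of 0.476. Stc1 had 64.2 and 49.9 CPM with PQ, 26.4 and 32.9 CPM with NAC and 52.8 and 54.0 CPM in control. The points compared are 6 libraries in 3 groups, and no test was made.

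**Figure D4:**
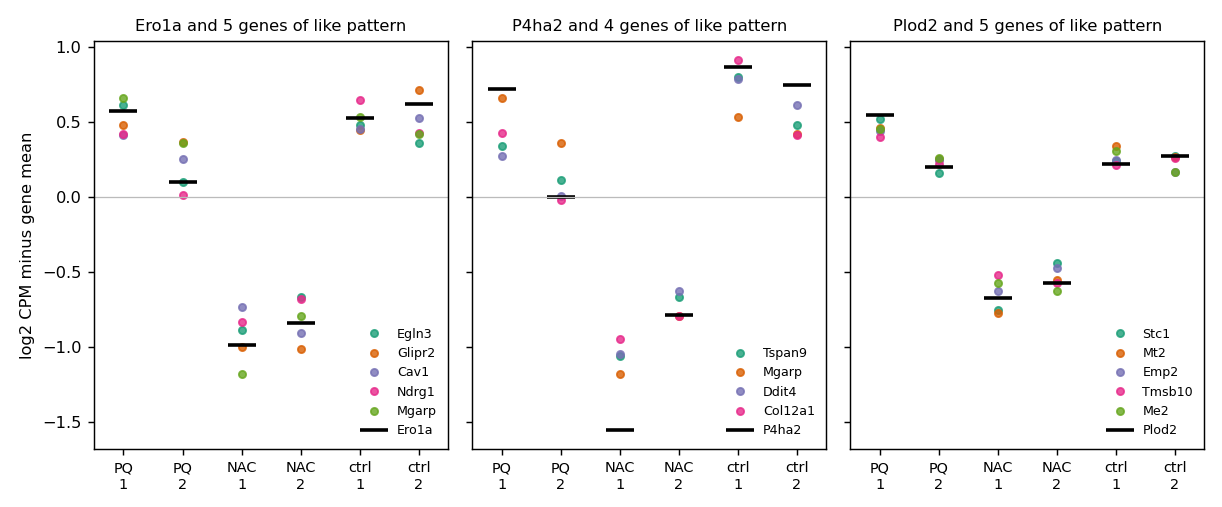
Log2 CPM minus the gene's mean in each library for Ero1a, P4ha2 and Plod2 (black bars) and for the 4 or 5 genes of like pattern named for each (coloured points), with PQ, NAC and control (ctrl) from left to right. In all 3 panels the NAC libraries lie below 0, and in each the bar of PQ library 2 lies below that of PQ library 1.

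The genes that work beside this family were described by lists, each given as the number of tested genes that passed the edgeR threshold in each direction. The lists were written with earlier results of these data known. Over all tested genes 9.07% were higher and 8.8% lower with PQ than in control. With NAC 8.65% were higher and 9.26% lower than in control, and 15.5% were higher and 15.1% lower with PQ than with NAC. Among 19 tested collagen processing partners 5 fell with NAC against control and 0 rose, with a median log2 fold change of -0.24, and 2 rose and 1 fell with PQ. Serpinh1, the collagen chaperone HSP47, had 29.5 and 31.1 CPM with PQ, 33.5 and 37.0 CPM with NAC and 51.9 and 57.8 CPM in control, and fell with PQ (log2 fold change -0.86 ± 0.12, adjusted p = 7.2e-05) and with NAC (-0.64 ± 0.11, adjusted p = 0.00058). Loxl2, which oxidises collagen lysines for crosslinks, had 119.7 and 103.5 CPM with PQ, 38.4 and 50.1 CPM with NAC and 86.6 and 76.3 CPM in control. It rose with PQ (0.45 ± 0.12, adjusted p = 0.013) and fell with NAC (-0.88 ± 0.13, adjusted p = 6.6e-05). Adamts14, a procollagen N-propeptidase (-0.64 ± 0.11), P3h1, a prolyl 3-hydroxylase (-0.37 ± 0.11), and Sec23a, a coat protein of vesicles that leave the ER (-0.32 ± 0.10), also fell with NAC. Colgalt2, a collagen galactosyltransferase, rose with PQ (0.92 ± 0.28, adjusted p = 0.03). The count that fell with NAC was 3 without any 1 of the control and NAC libraries, with scaling by library size alone and with a term for the runs of library numbers, and 1 gene rose with NAC without control library 1. The count that rose with PQ was 1 without control library 2 or either PQ library and 0 by limma on FPKM. Between PQ and NAC 4 were higher with PQ, namely Loxl2, Adamts14, P3h2 and P3h1, and 0 were lower.

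Of the collagen chains, the substrates of these enzymes, 19 of 40 were tested. With PQ 7 were higher and 2 lower than in control, and with NAC 2 were higher and 7 lower than in control. Over all tested genes 9.07% were higher and 8.8% lower with PQ, and 8.65% were higher and 9.26% lower with NAC. With PQ, Col6a1 rose (0.84 ± 0.13, adjusted p = 0.00017), as did Col18a1 (0.71 ± 0.11, adjusted p = 0.00032), and Col3a1 (-0.91 ± 0.14, adjusted p = 0.00025) and Col5a3 (-0.50 ± 0.16, adjusted p = 0.042) fell. With NAC, Col12a1 fell (-1.57 ± 0.18, adjusted p = 6.0e-06), as did Col5a1 (-0.92 ± 0.11, adjusted p = 1.4e-05), while Col11a1 (0.92 ± 0.10, adjusted p = 2.4e-06) and Col9a3 (1.98 ± 0.29, adjusted p = 7.5e-05) rose. Between PQ and NAC 8 were higher and 2 lower with PQ, where 15.5% of all tested genes were higher and 15.1% lower. Col6a1 differed most clearly (1.75 ± 0.13, adjusted p = 3.7e-08). The list's median log2 fold change was 0.18 for PQ and -0.36 for NAC against control. Without PQ library 2 or control library 2, 3 chains rose with PQ, and 1 fell without PQ library 2, by limma on FPKM or with scaling by library size alone. Without NAC library 1, 4 fell with NAC, and without either control library 4 were lower with PQ than with NAC.

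For the ER genes that work around Ero1, the counts stand beside 17.9% of all tested genes past the threshold in each comparison with control and 30.6% between PQ and NAC. Among 20 other thiol oxidation and disulfide isomerase genes 3 fell and 0 rose with PQ, 2 fell and 1 rose with NAC, and 1 was higher and 2 lower with PQ than with NAC, with medians of -0.08, -0.00079 and -0.07. The named ones were Tmx4, a membrane thioredoxin (-0.50 ± 0.10 with PQ and -0.43 ± 0.10 with NAC), Pdia5 (-0.70 ± 0.17) and Txndc12 (-0.32 ± 0.10) with PQ, and with NAC the peroxidase Gpx8 (-0.38 ± 0.13) and Vkorc1, the vitamin K epoxide reductase (0.45 ± 0.12). Between PQ and NAC Gpx8 was higher and Pdia5 and Vkorc1 were lower with PQ. Without PQ library 2 the count lower with PQ was 1, with scaling by library size alone 1 rose, and without NAC library 1 neither Vkorc1 nor any gene of the list passed with NAC. Without NAC library 2 the count higher with NAC was 0, and the count lower with NAC was 1 without NAC library 2, control library 2 or either PQ library, with scaling by library size alone, with a term for the runs of library numbers and by limma on FPKM. The counts for PQ against NAC became 0 higher without PQ library 1 or NAC library 2, and 1 lower without PQ library 1.

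Among 19 ER chaperone and unfolded protein response genes 2 rose and 1 fell with PQ, and 4 rose and 1 fell with NAC. Hspa5, the chaperone BiP, rose with PQ (0.37 ± 0.09, adjusted p = 0.0068) and with NAC (0.33 ± 0.09, adjusted p = 0.013), and so did the chaperone Calr (0.36 ± 0.09 and 0.31 ± 0.09). The co-chaperones Dnajc3 (0.41 ± 0.11) and Dnajb9 (0.42 ± 0.14) rose with NAC, and Herpud1, of ER-associated degradation, fell with PQ (-0.52 ± 0.14) and with NAC (-0.85 ± 0.15). Between PQ and NAC 1 gene, Dnajc3, was lower with PQ. Without NAC library 1, 0 rose with NAC, and without control library 2, 2 did, while without control library 1, 2 fell. When either PQ library was left out, 1 gene rose with PQ. Herpud1 did not pass with PQ without PQ library 2 or by limma on FPKM, and Dnajc3 did not pass between PQ and NAC without PQ library 2 or NAC library 1.

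Of the tested hypoxia-inducible genes outside the family, 25 of 29 fell and 0 rose with NAC against control, with a median of -0.82. Over all tested genes 9.26% were lower and 8.65% higher. With PQ 6 fell and 0 rose, with a median of -0.17, where 8.8% of all tested genes were lower and 9.07% higher. Between PQ and NAC 24 were higher with PQ and 0 lower, with a median of 0.63. Over all tested genes 15.5% were higher and 15.1% lower. This list too was written with earlier results of these data known. Ddit4 had 130.2 and 108 CPM with PQ, 51.8 and 69.4 CPM with NAC and 185 and 165 CPM in control, and fell with both (-0.56 ± 0.12, adjusted p = 0.0044, and -1.53 ± 0.13, adjusted p = 2.5e-07). Pfkp, a phosphofructokinase, fell with NAC (-1.16 ± 0.10, adjusted p = 2.8e-07), as did Ndrg1 (-1.30 ± 0.12, adjusted p = 7.3e-07), and with PQ so did the hexokinase Hk2 (-0.60 ± 0.11, adjusted p = 0.0013) and Vegfa (-0.41 ± 0.11, adjusted p = 0.014). The count that fell with PQ was 1 without PQ library 2, 3 without control library 1, 3 with a term for the runs of library numbers and 1 by limma on FPKM, and 1 gene rose without control library 1.

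Other hydroxylases of the same cofactor need were represented by 5 genes. Over all tested genes 17.9% passed in each comparison with control and 30.6% between PQ and NAC. Egln1, a prolyl hydroxylase of hypoxia-inducible factor, fell with PQ (-0.43 ± 0.11, adjusted p = 0.01) and with NAC (-0.56 ± 0.11, adjusted p = 0.0011), and Egln3, which also stands in the hypoxia list, fell with NAC (-1.20 ± 0.14, adjusted p = 7.1e-06) and was higher with PQ than with NAC (1.16 ± 0.14). The other 3 did not pass in any comparison. Egln1 did not pass with PQ without PQ library 2 or by limma on FPKM, and 1 gene of the list rose with PQ without PQ library 1 or with scaling by library size alone. Of 4 tested genes of ascorbate transport and recycling 1, Gsto1, a dehydroascorbate reductase, rose with PQ (0.34 ± 0.11, adjusted p = 0.047) and was higher with PQ than with NAC (0.51 ± 0.11, adjusted p = 0.0021). Its change with PQ did not pass when any 1 of the 6 libraries was left out, or with a term for the runs of library numbers.

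The genes of the ATF4 and CHOP stress axis, of which CHOP is known to induce Ero1a, fell more often than they rose against control. Of 12 tested genes 6 fell and 1, Cebpb, rose with PQ, 9 fell and 0 rose with NAC, and 6 were higher and 0 lower with PQ than with NAC. Over all tested genes 17.9% passed in each comparison with control and 30.6% between PQ and NAC, about evenly higher and lower. Chac1, a glutathione-degrading enzyme, had 7.18 and 7.79 CPM with PQ, 3.34 and 4.06 CPM with NAC and 32.4 and 54.8 CPM in control, and fell with PQ (-2.54 ± 0.21, adjusted p = 7.2e-07) and with NAC (-3.56 ± 0.24, adjusted p = 2.1e-08). Trib3, a pseudokinase that dampens the pathway, had 13.7 and 15.4 CPM with PQ, 7.51 and 9.51 CPM with NAC and 39.9 and 82.2 CPM in control. The control libraries of both genes lay far apart, and without control library 1 the count that fell with PQ was 10. Cebpb did not pass without control library 1, without PQ library 2 or by limma on FPKM, and without control library 2, 1 gene rose with NAC. The median log2 fold changes of the list were -0.68 for PQ and -1.33 for NAC against control.

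**Figure D5:**
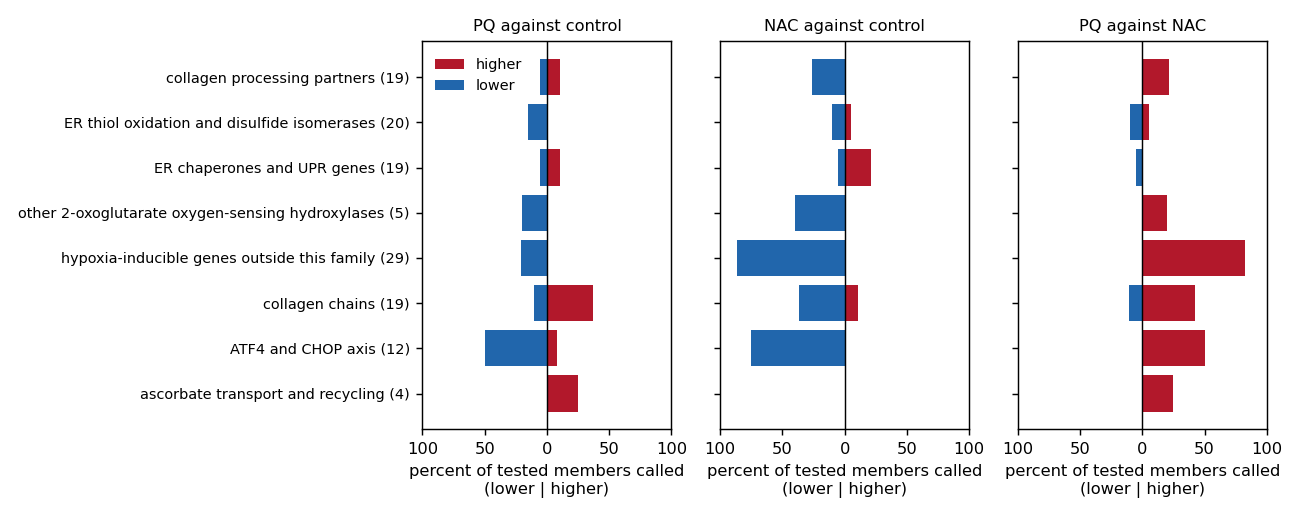
The percent of tested genes of each list that passed the edgeR threshold, lower to the left (blue) and higher to the right (red) of 0, in the 3 comparisons, with the number of tested genes in brackets. The hypoxia-inducible genes stand out in NAC against control, with 25 of 29 lower, and in PQ against NAC, with 24 of 29 higher. Over all tested genes these shares were 9.26% and 15.5%.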

How the data were processed

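Total RNA was extracted with TRIZOL and sequenced on a BGISEQ-500, per the labels' protocols. Bowtie2 2.2.5, HISAT2 2.0.4 and RSEM with mm10 are listed, without roles, per the submitters' processing notes. The deposited tables give each gene's length, expected count (20.9% to 21.4% of values are not whole) and FPKM, per the file headers. Genes absent from a table were set to 0. Expected counts were rounded and tested with edgeR 4.0.16 (limma 3.58.1, R 4.3.3): filterByExpr (minimum count 10, minimum total 15), TMM scaling, quasi-likelihood fitting of group means to all 6 libraries (3 residual degrees of freedom), and Benjamini-Hochberg adjustment over 12813 genes, with a threshold of 0.05. SE is the absolute log2 fold change over the square root of F. CPM uses TMM-scaled totals. FPKM as deposited by the authors gave levels, shares and ratios between genes, and limma fits on log2(FPKM + 0.1). The members and the gene lists were chosen with earlier results of these data known. The text names all 9 members. Of the genes of like pattern 1 is not reported here. Of each list it draws on the 3 called genes of smallest p with at least 5 CPM in each comparison and on all called genes of a direction with 5 or fewer. Replicates follow sample order. The fit was tested on simulated data. Promoters are from RefSeq and exons from GENCODE, both GRCm38. The alternatives were DESeq2 1.42.0, library-size scaling, other filters, limma on FPKM, fits of only the groups compared, a term for the runs of library numbers (added after seeing the data), and leaving out each library.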

Additional observations from a re-analysis of the deposited data

How the results depend on the processing

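The main fit used no pairing, because the labels give no replicate number shared between groups. The titles number the libraries in runs of 8 to 10 and 11 to 13, which nothing calls batches. A fit with the run as a term, chosen after seeing the data (2 residual degrees of freedom), gave 1842 genes past the threshold (0 of the 8) for PQ and 1901 (5 of the 8) for NAC, each against control, and 3485 (5 of the 8) between PQ and NAC. Differences between the runs correlated across 12813 genes by 0.11 for PQ and NAC, -0.068 for PQ and control and -0.11 for NAC and control. As a description, the log2 fold change of NAC against control ranged over 17 alternatives from -1.565 to -1.413 for Ero1a, -2.394 to -1.609 for P4ha2 and -0.919 to -0.815 for Plod2. Computed from expected count per listed length, a measure close to FPKM, the group means of all shares stayed within the SD of the FPKM shares. Leaving out 1 library cannot test the shares, because with 2 libraries a group the remaining value always lies within the SD of the mean. How far the shares depend on single libraries was therefore not tested. The count of all genes past the threshold was 2289 for PQ against control, 2294 for NAC against control and 3926 for PQ against NAC, and became 681, 930 and 2474 by limma on log2(FPKM + 0.1) with no filter. Leaving out 1 library gave 829 to 2181, 1338 to 2157 and 2427 to 4442. The count of these genes past the threshold became 1 without a filter on low counts in PQ against control (P4ha2), and 3 by limma with no filter in both NAC against control and PQ against NAC. Leaving out 1 library gave 0 to 2, 4 to 5 and 3 to 6. Small log2 differences between PQ and control changed sign. Plod3 was -0.00020 by DESeq2, and leaving out 1 library gave -0.055 to 0.058 for Plod3 (-0.036 without PQ library 1, -0.00042 and -0.00020 without NAC library 1 and 2), -0.11 to 0.14 for P4ha1 (-0.014 without control library 2), -0.042 to 0.26 for Plod1, -0.045 to 0.30 for Plod2, -0.14 to 0.28 for Ero1b and -0.19 to 0.012 for P4hb. The cause was not tested. P4ha1 lost its call in NAC against control under 6 alternatives and P4hb under 1. With 2 libraries a group at this depth, simulated 1.5-fold changes were found in 58.2% to 70.9% of randomly picked tested genes of any level. The simulated spread followed the trend over level, so genes with a wider spread of their own were not represented.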

Other observations

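The deposited tables list a gene length for each library, which varied between libraries for some genes with several transcripts. For Plod2, whose coding transcripts are 2211 and 2274 bases long in their coding part, it was 3703 and 3711 bases with PQ, 3695 and 3690 bases with NAC and 3700 and 3696 bases in control.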
